A study of Mus musculus with 6 samples.

Results

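The ATF4 amino acid response genes described here are 43 genes of the mouse, chosen by name: Atf4 itself and its known targets in amino acid synthesis, amino acid transport, tRNA charging and stress feedback. They were taken from the 55487 Ensembl identifiers of the study, and 41 of the 43 had a mean of at least 0.5 TPM, a read count divided by transcript length and scaled to a fixed total per library, over all libraries and were tested among 13829 genes. Vldlr and Stc2, a lipoprotein receptor and a secreted glycoprotein, had 0 reads in each of the 6 libraries and were not tested. The remaining members had mean levels with control siRNA between 2.37 TPM for Pycr1 and 792 TPM for Shmt2.

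J774 is a mouse macrophage cell line. The cells received either a negative control siRNA or an siRNA against NCOA4, the receptor that brings ferritin to the lysosome for the release of its iron, and both siRNAs were delivered with a lipid reagent. The control libraries thus carry an siRNA and a transfection too. Each group consisted of 3 biological replicates, and poly(A) RNA of whole cultures was sequenced with stranded libraries. All libraries come from this single cell line, and the time from transfection to RNA isolation is not stated for these libraries in the sources used here. The comparison asks which transcripts differ in abundance when NCOA4 is depleted.

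ATF4 is a transcription factor whose own mRNA is translated more efficiently when kinases that sense amino acid shortage, heme shortage, unfolded protein or viral RNA phosphorylate the initiation factor eIF2. Together with C/EBP partners, ATF4 binds a composite element in the promoters of genes that make, import and load amino acids, and it also induces genes that damp the response, among them Trib3 and Ppp1r15a. Since much of ATF4 control lies in translation, the level of Atf4 mRNA is not a measure of the protein, and no protein is part of these data.

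Libraries held between 15502131 and 18282107 reads on the genes whose reads could be rebuilt, so that 1 read on a 2 kb transcript was worth 0.0825 to 0.0959 TPM. Ncoa4 had 19.7, 22.5 and 22.4 TPM with control siRNA and 9.63, 8.60 and 8.88 TPM with NCOA4 siRNA, and its mean fell to 41.9% of control (limma adjusted p = 0.00127). All 8 macrophage markers were present, at 33.0 TPM or more in every library, and their summed level was 8543 to 8724 TPM with control siRNA and 8813 to 8916 TPM with NCOA4 siRNA. Among them Adgre1, the F4/80 antigen, and Csf1r, the receptor for the macrophage growth factor, rose (limma adjusted p = 0.0248 and 0.0218) and the endotoxin receptor Cd14 fell (adjusted p = 0.0361), and with a library left out these values reached up to 0.114, 0.104 and 0.158. Over the 8 markers, 6 were higher and 2 lower, with log2 fold changes from -0.27 to 0.61. Their median was 0.17, against 0.03 over all tested genes. The part of these marker changes in the results that follow was not tested. Defining markers of other cell types were at or near 0, with a summed level of at most 0.0265 TPM for 4 fibroblast genes (2 at 0 throughout), 0.150 TPM for 4 epithelial genes (3 at 0) and 0.431 TPM for 4 lymphocyte genes (2 at 0). Of 4 erythroid genes 3 were at 0, and the remaining Klf1 ranged from 0.598 to 1.94 TPM.

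With NCOA4 siRNA, most response genes had lower levels. A log2 fold change below 0 was found in 39 of 41 tested members, against 42.6% of all tested genes, and in 35 to 38 members with a library left out. Of these members 12 fell at an adjusted p under 0.05 (limma on log2(TPM + 0.5) with Benjamini-Hochberg adjustment over the 13829 genes), which is 29.3% of those tested against 2.31% of all genes. No member rose by this test, against 3.11% of all genes, and 5.42% of all genes passed in either direction. At an unadjusted p under 0.05, 22 members were lower, against 8.84% of all genes. The members were chosen with earlier results of these data known, so that these differences from all genes are no independent evidence. The 12 were Atf4 and Atf3 among the transcription factors, Chac1, Trib3 and Eif4ebp1 among the feedback and signalling genes, Asns and Mthfd2 of amino acid and one-carbon synthesis, Slc6a9, Slc1a4 and Slc7a5 of the transporters, and Sars and Cars of the tRNA synthetases. In 4 of them, Slc6a9, Chac1, Trib3 and Slc1a4, the fall was also larger than 1.5-fold, against 0.318% of all tested genes lower by this rule and 1.18% in either direction. In bulk RNA of cultures, fewer cells of a kind and less RNA per cell cannot be told apart.

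The shift was small for most members and similar in the 3 NCOA4 siRNA libraries. On the log2(TPM + 0.5) scale, which understates the change of low genes, the median difference over the 41 members was -0.13, with a range from -0.83 to 0.10, while the median over all tested genes was 0.03. Measured against the control mean, 37, 39 and 36 of the 41 members were lower in NCOA4 siRNA replicates 1 to 3. The median deviation of the members was -0.02, 0.00 and 0.02 in the control libraries and -0.11, -0.17 and -0.13 in the NCOA4 siRNA libraries, whereas over all tested genes the latter had 0.04, 0.02 and 0.03. All 3 NCOA4 siRNA values lay below all 3 control values in 23 members (56.1%), against 11.8% of all tested genes. An exact permutation test over the 20 arrangements of 6 libraries cannot go below p = 0.1, and each of the 12 members that passed had this value.

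**Figure D1:**
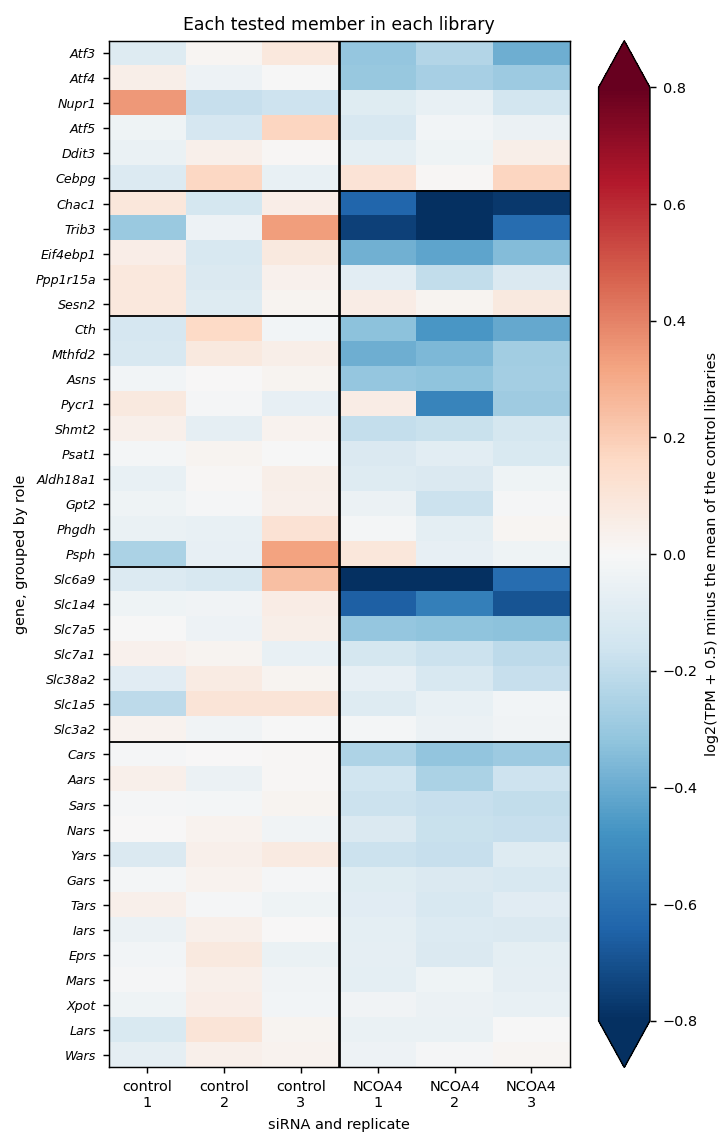
Deviation of each of the 41 tested members from its mean in the control libraries, as log2(TPM + 0.5), with one column per library and genes grouped by role (blue lower, red higher). Colours saturate at the ends of the bar, the NCOA4 siRNA columns are blue in 37, 39 and 36 of the 41 genes, and the deepest blue lies in Chac1, Trib3, Slc6a9 and Slc1a4.

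The number of members that passed depended on the libraries. Leaving out control siRNA replicates 1, 2 and 3 in turn left 13, 7 and 5 members past the threshold. Leaving out NCOA4 siRNA replicates 1, 2 and 3 left 2, 1 and 3, while the median over the members stayed between -0.15 and -0.11. The share of all tested genes that fell at this threshold was 2.31% with all libraries. It was 2.68%, 1.42% and 1.16% without control siRNA replicates 1, 2 and 3. Without NCOA4 siRNA replicates 1, 2 and 3 it was 0.535%, 0.362% and 0.535%. Over all tested genes the count at the same threshold, in either direction, also fell, from 750 to 156, 127 and 182 without NCOA4 siRNA replicates 1, 2 and 3. With a fold change above 1.5 besides, it fell from 163 to 86, 77 and 98. Bringing every library to the same median raised the number of members that passed to 20. The share of all tested genes that fell and passed rose as well, from 2.31% to 4.50%. The median was then -0.19 over the members and -0.03 over all genes, so that the difference between these medians stayed at -0.16.

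A short promoter sequence was present in some members and more often than in all genes. The members were chosen as known targets of ATF4, so that this excess is no independent support. The element bound by C/EBP and ATF4 dimers has the core TGATGNAA (N, any base), which was searched on both strands in the 300 bases from 250 before to 50 after each transcription start in RefSeq promoters of mouse build GRCm38.p6. Of the 34 members with an entry, 13 held it (38.2%), against 4.51% of the 27025 genes in the table. Restricted to tested genes it was found in 12 of 32 members (37.5%) and in 2.84% of 9093 genes. The matches below belong to members that passed the test and hold the core, followed by 2 tRNA synthetase genes for comparison. Each is printed 5′ to 3′ on the strand that reads TGATGNAA, with the core in capitals and 10 bases on either side.
Chac1 (chr2:119351039-119351066, minus strand): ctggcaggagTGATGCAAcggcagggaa
Trib3 (chr2:152344029-152344056, plus strand): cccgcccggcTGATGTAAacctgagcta
Atf3 (chr1:191183426-191183453, plus strand): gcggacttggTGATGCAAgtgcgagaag
Asns (chr6:7693215-7693242, minus strand): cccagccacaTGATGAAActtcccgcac
Slc1a4 (chr11:20332700-20332727, plus strand): aggctggagaTGATGCAAcgcaggaggc
Iars (chr13:49682127-49682154, minus strand): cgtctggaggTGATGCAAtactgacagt
Tars (chr15:11399656-11399683, plus strand): gctaaccagcTGATGCAAcgggactcct

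Along the gene, with the first transcribed base as position 0, the core began at -193 in Chac1, -110 in Atf3, -23 in Asns and -4 in Slc1a4, and at 14 in Trib3. The starts are those of RefSeq, and in Trib3 the core lies upstream of the gene's start in GENCODE M21. In Atf3 the core lies inside the gene as annotated there (chr1:191170296-191218039), so that -110 counts from a RefSeq start within it. The core of Asns also lies inside the annotated gene (chr6:7675169-7693254), and -23 counts from a RefSeq start within that gene. Other members with the core included Yars, Gars, Nupr1, Pycr1 and the untested Vldlr. Of the 9 members that passed and had an entry, the 5 printed first held it. The median log2 fold change was -0.22 over the 12 tested members with the core and -0.09 over the 20 without it. A match is a description of the letters in this window, and binding was not measured. No promoter entry was used for Eif4ebp1, Cth, Slc7a5, Slc1a5, Nars, Wars, Mars, Lars and Cars.

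Of the 6 transcription factors 5 were lower and 2, Atf4 and Atf3, passed, with a median log2 fold change of -0.08. Atf4 (chr15:80255184-80257541, plus strand, GRCm38, in GENCODE M21 as for all gene positions given here) had 471, 442 and 454 TPM with control siRNA and 369.6, 378 and 373 TPM with NCOA4 siRNA. Every NCOA4 siRNA library was thus below every control library. Control libraries averaged 456 ± 14.7 TPM and NCOA4 siRNA libraries 374 ± 4.33 TPM (SD over 3 libraries, here and in what follows), and the log2 fold change was -0.29 (SE 0.0383, limma adjusted p = 0.0116). Without any one of the NCOA4 siRNA libraries the adjusted p rose to between 0.0682 and 0.0765.

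Atf3 (chr1:191170296-191218039, minus strand), a stress-induced factor that ATF4 activates and that dimerizes with it, had 114, 124 and 130.1 TPM with control siRNA and 98.8, 104 and 93.3 TPM with NCOA4 siRNA. The groups did not overlap. The log2 fold change was -0.31 (SE 0.0630, limma adjusted p = 0.0396), and it passed only as long as control siRNA replicates 2 and 3 and all NCOA4 siRNA libraries were kept, with adjusted p of 0.0936 and 0.0951 without the former and 0.0941 to 0.146 without the latter.

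Ddit3 (chr10:127290774-127296288, plus strand), which encodes the ER stress factor CHOP, behaved unlike Atf4. It had 17.0, 18.2 and 17.8 TPM with control siRNA and 16.7, 17.3 and 18.3 TPM with NCOA4 siRNA. The libraries of the groups lay among each other, and the log2 fold change of -0.02 (SE 0.0589, limma adjusted p = 0.875) turned to 0.00 or 0.01 without control siRNA replicate 2 or NCOA4 siRNA replicate 1. Its annotated end overlaps that of Mars on the opposite strand, and whether reads were counted by strand is not given in the sources used here. The remaining factors did not pass either. Their log2 fold changes were -0.07 for Atf5, -0.10 for Nupr1, a chromatin protein of the stress response, and 0.10 for Cebpg, a dimerization partner of ATF4, and in each the groups overlapped. Without control siRNA replicate 3 Atf5, and without control siRNA replicate 1 Nupr1, was above 0.

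Of the 5 feedback and signalling genes 4 were lower and 3 passed, with a median log2 fold change of -0.39, the most negative of the 5 roles tested. Chac1 (chr2:119351229-119354381, plus strand), an enzyme that breaks down glutathione, had 11.8, 9.98 and 11.5 TPM with control siRNA and 6.94, 5.49 and 6.28 TPM with NCOA4 siRNA. Even its highest NCOA4 siRNA library lay well below its lowest control library. The level with NCOA4 siRNA was 56.2% of control, with a log2 fold change of -0.78 (SE 0.108, limma adjusted p = 0.0124), resting on 49 to 111 reads per library. Leaving out NCOA4 siRNA replicate 2 or 3 gave adjusted p of 0.0560 and 0.0618.

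Trib3 (chr2:152337422-152344032, minus strand), a pseudokinase induced by ATF4 that represses its activity, had 11.5, 13.8 and 18.1 TPM with control siRNA and 8.26, 7.60 and 9.12 TPM with NCOA4 siRNA. Control siRNA replicate 3 was the highest and replicate 1 the lowest of a wide control group, yet the groups did not overlap. The mean fell from 14.4 ± 3.33 TPM to 8.33 ± 0.764 TPM, with a log2 fold change of -0.74 (SE 0.160, limma adjusted p = 0.0483). This call was lost without control siRNA replicate 2 or 3 (adjusted p = 0.103 and 0.0711) or without any NCOA4 siRNA library (0.119 to 0.175), with fold changes of -0.89 to -0.57 over all libraries left out.

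Eif4ebp1 (chr8:27260329-27276674, plus strand) encodes 4E-BP1, the repressor of cap-dependent translation that mTORC1 inactivates. It had 173, 152 and 175 TPM with control siRNA and 127, 124 and 131 TPM with NCOA4 siRNA, with no overlap between the groups. Its log2 fold change was -0.39 (SE 0.0608, limma adjusted p = 0.0190), and the adjusted p rose to 0.0562 without control siRNA replicate 3 and to 0.0738 to 0.0959 without any NCOA4 siRNA library. Ppp1r15a, which encodes GADD34, the phosphatase subunit that reverses eIF2 phosphorylation, had a log2 fold change of -0.13 (adjusted p = 0.310 by limma). Sesn2, a leucine sensor upstream of mTORC1, had 0.05 (adjusted p = 0.634), which turned negative when the libraries were brought to a common median.

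**Figure D2:**
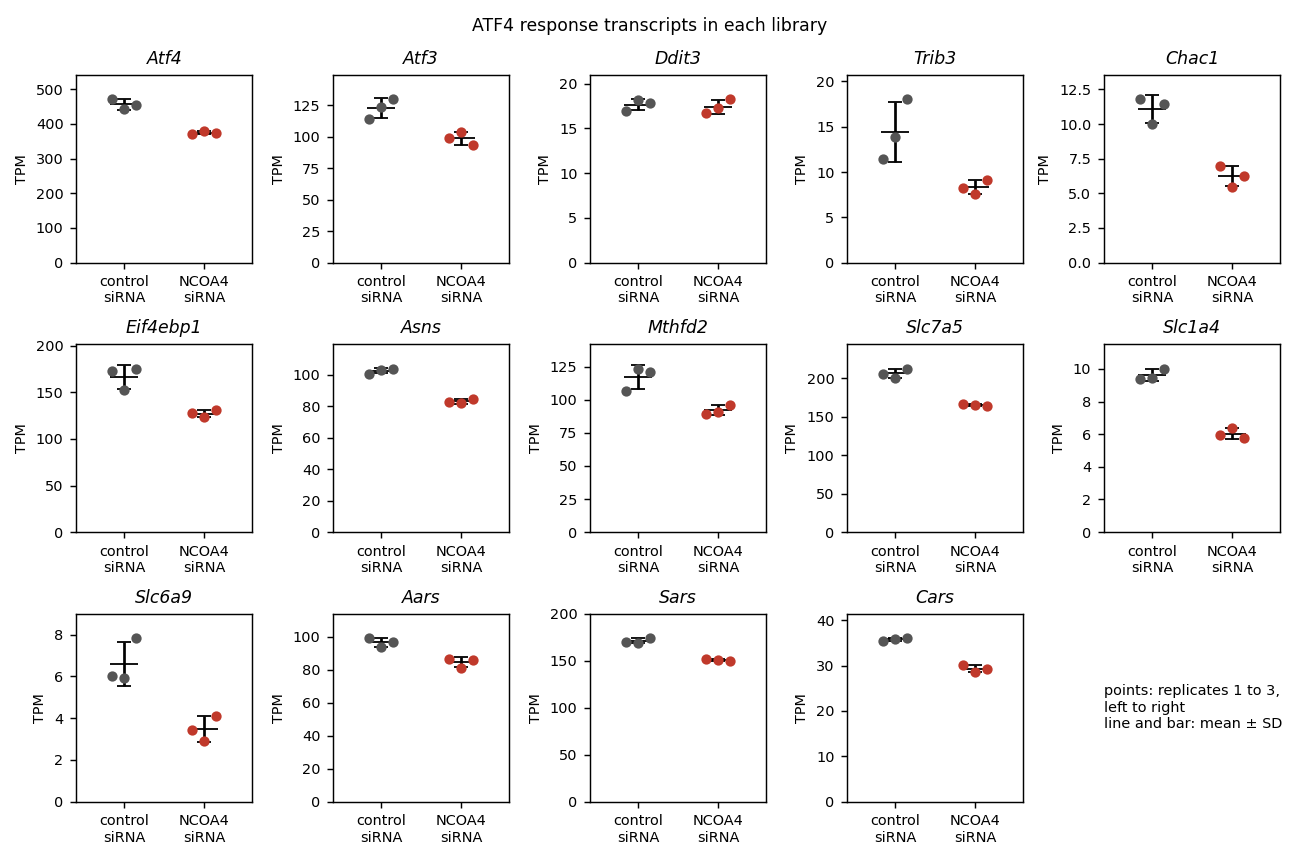
TPM of 14 members in each library, with replicates 1 to 3 from left to right, control siRNA in grey, NCOA4 siRNA in red, the mean ± SD (n = 3) as line and bar, and each axis starting at 0. The groups overlap only in Ddit3, at 17.7 and 17.4 TPM on average, and the largest falls are in Slc6a9, Chac1, Trib3 and Slc1a4, to between 52.9% and 62.8% of control.

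All 10 tested genes of amino acid and one-carbon synthesis were lower (Psph was above 0 with limma-voom and without control siRNA replicate 3 or NCOA4 siRNA replicate 2 or 3, and Phgdh without control siRNA replicate 3), 2 passed, and the median log2 fold change was -0.14. Asns (chr6:7675169-7693254, minus strand), asparagine synthetase and a classical ATF4 target, had 101, 103 and 104 TPM with control siRNA and 82.5, 82.0 and 84.9 TPM with NCOA4 siRNA. Replicates were close to each other and the groups well apart. The mean fell from 102 ± 1.62 TPM to 83.1 ± 1.53 TPM, with a log2 fold change of -0.30 (SE 0.0363, limma adjusted p = 0.00815), with adjusted p of 0.0580 and 0.0601 when NCOA4 siRNA replicate 1 or 2 was left out.

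Mthfd2 (chr6:83305691-83325908, minus strand), the mitochondrial folate enzyme downstream of Shmt2, had 107, 123 and 121 TPM with control siRNA and 89.1, 91.0 and 96.2 TPM with NCOA4 siRNA. Control siRNA replicate 1 was the lowest control and still above every NCOA4 siRNA library. The log2 fold change was -0.34 (SE 0.0642, limma adjusted p = 0.0312). Mthfd2 no longer passed without control siRNA replicate 2 or 3 (adjusted p = 0.0764 and 0.0878) or without any NCOA4 siRNA library (0.0902 to 0.135).

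The remaining synthesis genes did not pass. Cth, the transsulfuration enzyme that makes cysteine, had the largest difference of these, from 13.8 ± 1.5 to 10.3 ± 0.501 TPM, with a log2 fold change of -0.40 (limma adjusted p = 0.0535) and no overlap between the groups. Shmt2, the mitochondrial serine hydroxymethyltransferase and most abundant member, had 792 ± 33.1 and 704 ± 13.3 TPM (-0.17, adjusted p = 0.0813), also without overlap. Of the 3 enzymes of serine synthesis, Psat1 had a log2 fold change of -0.11 with groups that did not overlap, and Phgdh and Psph had -0.03 and -0.00 with groups that did. Phgdh shares 97.4% and 98.7% of its aligned sequence with the expressed pseudogenes Gm9347 and Gm7901, and Psph shares 255 bases with the abundant Cct6a, so that both values are uncertain. The proline enzymes Aldh18a1 and Pycr1 had -0.09 and -0.25 and the alanine transaminase Gpt2 had -0.07, all with overlapping groups, and Pycr1 rested on 32 to 57 reads per library.

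Among the 7 amino acid transporters all were lower, 3 passed, and the median log2 fold change was -0.17. Slc6a9 (chr4:117834506-117875198, plus strand), the glycine transporter GLYT1, showed the largest fall of any member. It had 6.03, 5.94 and 7.84 TPM with control siRNA and 3.45, 2.89 and 4.13 TPM with NCOA4 siRNA. Each NCOA4 siRNA library was below the lowest control, and the mean was 52.9% of control, with a log2 fold change of -0.83 (SE 0.157, limma adjusted p = 0.0314) from 81 to 210 reads per library. Slc6a9 has 1261 bases in common with the overlapping gene Ccdc24, listed at 0 TPM. Its adjusted p rose above the threshold whichever library was left out, to 0.0506, 0.0617 and 0.0792 without control siRNA replicates 1 to 3 and to 0.123, 0.113 and 0.0651 without NCOA4 siRNA replicates 1 to 3.

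Slc1a4 (chr11:20302180-20332713, minus strand), the neutral amino acid exchanger ASCT1, had 9.36, 9.41 and 10.0 TPM with control siRNA and 5.92, 6.40 and 5.74 TPM with NCOA4 siRNA. Both groups were narrow and far apart. The log2 fold change was -0.63 (SE 0.0758, limma adjusted p = 0.00802), and of the libraries left out only NCOA4 siRNA replicate 1 took the adjusted p past 0.05, to 0.0507.

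Slc7a5 (chr8:121881150-121907694, minus strand), the light chain LAT1 of the large neutral amino acid transporter, had 206, 200.2 and 213 TPM with control siRNA and 166, 165 and 164 TPM with NCOA4 siRNA. The 3 NCOA4 siRNA values were nearly equal and below all controls. Its log2 fold change was -0.32 (SE 0.0370, limma adjusted p = 0.00719), with an adjusted p of 0.0542 without NCOA4 siRNA replicate 2. Slc3a2, the heavy chain CD98 that LAT1 needs to reach the membrane, had 304 ± 5.58 and 298 ± 3.04 TPM with overlapping groups (log2 fold change -0.03, adjusted p = 0.664). The cationic transporter Slc7a1 had a log2 fold change of -0.17 (adjusted p = 0.0750) and no overlap, while the glutamine carriers Slc1a5 (-0.06) and Slc38a2 (-0.13) had groups that overlapped.

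All 13 genes of tRNA charging and export were lower, by little, although Wars was above 0 without control siRNA replicate 2 or 3 or NCOA4 siRNA replicate 1, and Lars without control siRNA replicate 2. In 9 of them the groups did not overlap, 2 passed, and the median log2 fold change was -0.11, with a range from -0.28 to -0.01. Cars (chr7:143557230-143600090, minus strand), the cysteinyl-tRNA synthetase, had 35.5, 35.8 and 36.0 TPM with control siRNA and 30.1, 28.7 and 29.2 TPM with NCOA4 siRNA. Controls had an SD of 0.272 TPM, and all NCOA4 siRNA libraries were lower. The log2 fold change was -0.28 (SE 0.0424, limma adjusted p = 0.0164), and the adjusted p rose to 0.0536 without control siRNA replicate 3 and to 0.0655 to 0.0894 without any NCOA4 siRNA library.

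Sars (chr3:108424865-108445209, minus strand), the seryl-tRNA synthetase, had 170.2, 169 and 174 TPM with control siRNA and 152, 151 and 149.5 TPM with NCOA4 siRNA, again without overlap. Its mean with NCOA4 siRNA was 88.0% of control (log2 fold change -0.18, SE 0.0333, limma adjusted p = 0.0282). Sars no longer passed without control siRNA replicate 2 or 3 (adjusted p = 0.0540 and 0.0779) or without any NCOA4 siRNA library (0.117 to 0.130). Aars (chr8:111033144-111057664, plus strand), the alanyl-tRNA synthetase, had 99.0, 93.4 and 96.8 TPM with control siRNA and 86.3, 81.0 and 85.9 TPM with NCOA4 siRNA. Its groups did not overlap, but the log2 fold change of -0.19 (SE 0.0440) missed the threshold (limma adjusted p = 0.0570). It passed after median centring (0.0340), with a filter at 5 TPM (0.0466) and with limma-voom on rebuilt reads (0.0180). Aars has 1326 bases in common with the overlapping gene Exosc6, which was listed at 0 TPM.

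The other synthetases did not pass. Nars (-0.16), Gars (-0.11), Tars (-0.11), Iars (-0.10), Eprs (-0.09) and Mars (-0.06) had NCOA4 siRNA values below all controls, and in Yars (-0.15), Lars (-0.03), Wars (-0.01) and the tRNA exporter Xpot (-0.05) the groups overlapped. These numbers are log2 fold changes, and their adjusted p by limma ran from 0.0633 for Nars to 0.905 for Wars.

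**Figure D3:**
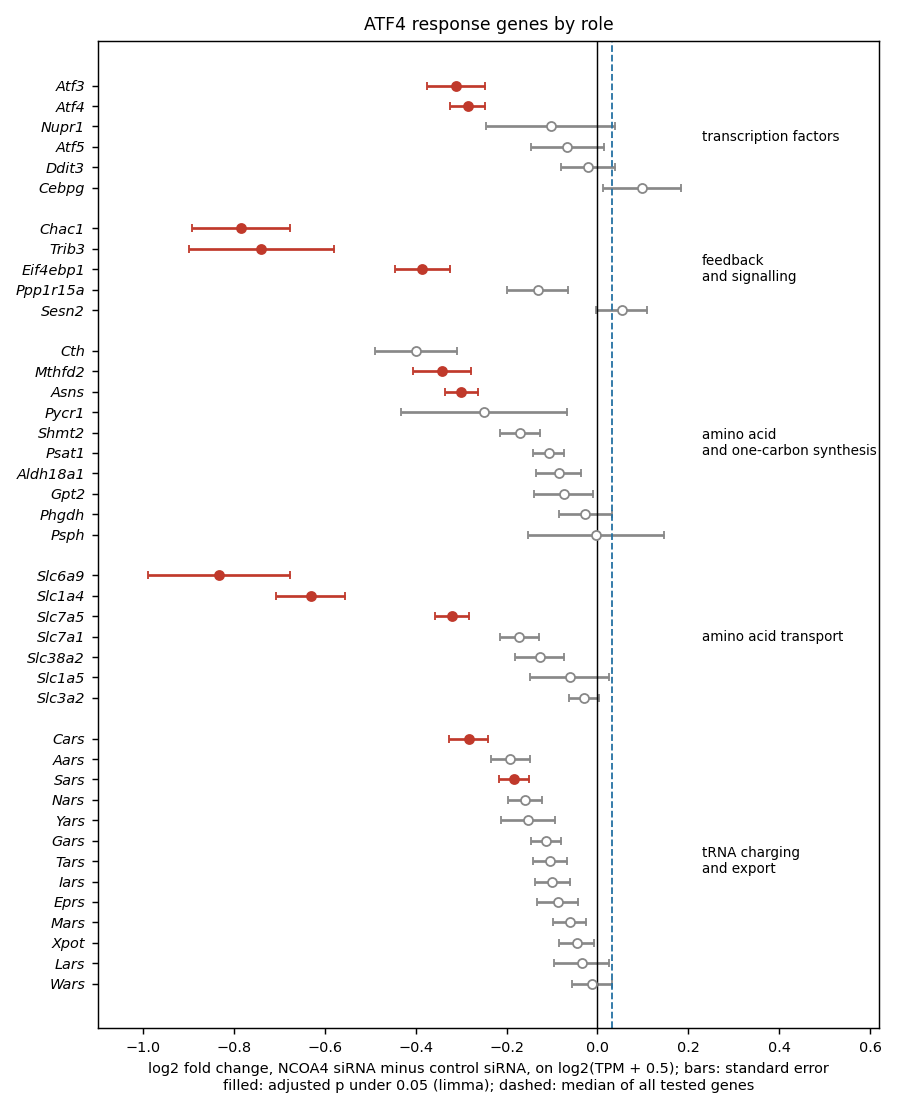
Log2 fold change of each tested member, NCOA4 siRNA minus control siRNA on log2(TPM + 0.5), with its standard error, grouped by role, with filled points for an adjusted p under 0.05 and a dashed line at the median of all tested genes, 0.03. The 12 filled points all lie left of 0, between -0.83 for Slc6a9 and -0.18 for Sars, and only Cebpg and Sesn2 lie right of it (Sesn2 left of it after median centring).

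Ratios within a library were taken for 5 pairs of members. The ratio of LAT1 to its heavy chain, Slc7a5 to Slc3a2, which does not depend on the scaling of a library, was 0.665, 0.670 and 0.701 with control siRNA and 0.553, 0.560 and 0.550 with NCOA4 siRNA. These values did not overlap, and the log2 ratio differed by -0.29 (SE 0.0247, exact two-sided permutation p = 0.1, the smallest possible, adjusted p = 0.167 over 5 pairs). For ASCT1 and ASCT2, Slc1a4 to Slc1a5, the ratio was 0.0585 ± 0.00646 and 0.0382 ± 0.00266 (log2 difference -0.61, SE 0.108), and for Trib3 to Ddit3 it was 0.816 ± 0.176 and 0.478 ± 0.0327 (-0.75, SE 0.183), both without overlap and with the same exact permutation p. Mthfd2 to Shmt2 (-0.17, SE 0.0952) and Atf4 to Atf5 (-0.22, SE 0.0913) had overlapping groups, with an exact permutation p = 0.2 each. The 5 pairs were chosen after the values of their genes had been seen, so that these p-values add no evidence to those values.

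**Figure D4:**
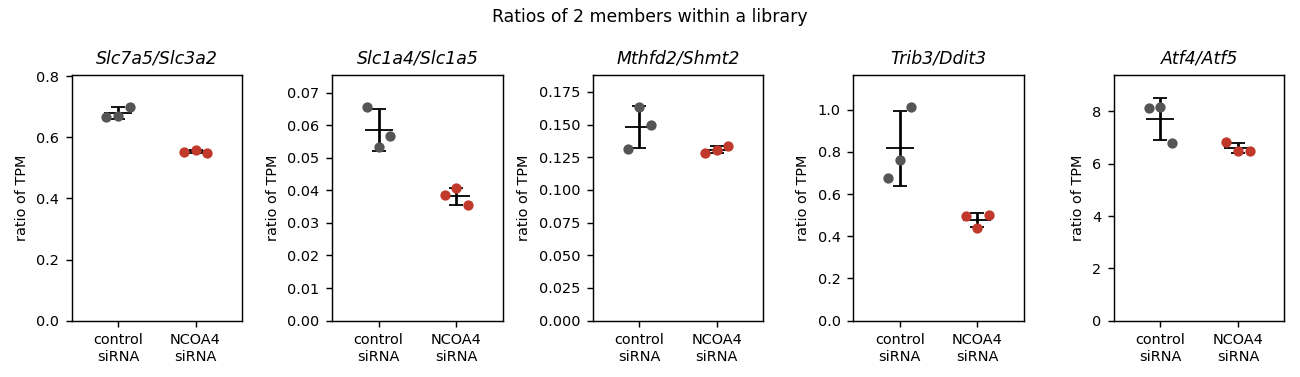
Ratio of the TPM of paired members in each library, with control siRNA in grey and NCOA4 siRNA in red, replicates 1 to 3 from left to right, the mean ± SD, and each axis starting at 0. The groups are apart for Slc7a5/Slc3a2, Slc1a4/Slc1a5 and Trib3/Ddit3, at 0.679 and 0.554, 0.0585 and 0.0382, and 0.816 and 0.478 on average, and they overlap for Mthfd2/Shmt2 and Atf4/Atf5.

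Genes around the response were described in the same way, in lists that were also chosen with earlier results of these data known. Upstream, none of 17 genes passed that encode the eIF2 kinases, their regulators (Gcn1, Impact, Dele1 and Oma1), eIF2, its exchange factor eIF2B and the phosphatase subunit Ppp1r15b. Of these 6 were lower and 11 higher, the regulators and Ppp1r15b all among the higher, and their median log2 fold change was 0.06. The kinases Eif2ak1 (HRI, which senses heme), Eif2ak2 (PKR), Eif2ak3 (PERK) and Eif2ak4 (GCN2) had 0.04, 0.13, 0.11 and 0.17. Abundance of these transcripts is not a measure of kinase activity.

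Of 15 further ATF4 targets 12 were tested, 9 of these were lower, and the median was -0.14. The 2 that passed were Bcat1, the cytosolic branched-chain aminotransferase, and Mthfd1l, a mitochondrial folate enzyme. Bcat1 had 71.2, 68.5 and 68.4 TPM with control siRNA and 54.3, 53.7 and 53.2 TPM with NCOA4 siRNA. All NCOA4 siRNA libraries were below the controls, and its log2 fold change of -0.37 (SE 0.0381, limma adjusted p = 0.00516) remained past the threshold without any single library. Mthfd1l fell from 120.3 ± 1.59 to 107 ± 1.20 TPM (limma adjusted p = 0.0396). It no longer passed when any library other than control siRNA replicate 1 was left out (adjusted p = 0.0803 to 0.169). The cystine transporter Slc7a11, the secreted factor Gdf15 and the mTORC1 inhibitor Ddit4 had -0.28, 0.14 and 0.33 and did not pass, and Fgf21, Slc7a3 and Adm2 were below the level for testing.

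The synthetases outside the list stood closer to the median of all genes. Of 11 other genes of the cytosolic synthetases and their scaffold 9 were lower and the median was -0.03. Only the histidyl-tRNA synthetase Hars passed, from 209.6 ± 0.919 to 179 ± 1.66 TPM (log2 fold change -0.22, limma adjusted p = 0.0140), and not without any NCOA4 siRNA library (adjusted p = 0.0738 to 0.0844). Of the 17 mitochondrial synthetases 5 were lower and 12 higher, none passed, and the median was 0.04.

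Other amino acid transporters moved in both directions. Of 19 genes 15 were tested, 5 were lower and 10 higher, and the median was 0.08. Slc36a1, the lysosomal proton-coupled carrier PAT1, had 23.2, 25.4 and 23.7 TPM with control siRNA and 36.1, 36.3 and 34.2 TPM with NCOA4 siRNA. Each NCOA4 siRNA library was above all controls, and the log2 fold change of 0.55 (SE 0.0546, limma adjusted p = 0.00451) stayed past the threshold whichever library was left out.

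Also higher were Slc7a7, the light chain y+LAT1 that like LAT1 pairs with Slc3a2, from 30.9 ± 1.06 to 42.3 ± 1.70 TPM (log2 fold change 0.45, limma adjusted p = 0.00686, and 0.0514 without NCOA4 siRNA replicate 2), and Slc43a2, the leucine carrier LAT4, from 28.2 ± 0.878 to 38.0 ± 1.64 TPM (0.42, adjusted p = 0.00815, and 0.0507 without NCOA4 siRNA replicate 1). The creatine transporter Slc6a8 fell from 52.4 ± 1.73 to 44.5 ± 1.20 TPM (-0.23, adjusted p = 0.0330), and its adjusted p was 0.0510 to 0.144 when any library was left out. Slc1a1, Slc1a2, Slc1a3 and Slc43a1 were below the level for testing.

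Other one-carbon and glycine genes, 12 in number, had a median of 0.07, with 3 lower and 9 higher. Methionine synthase Mtr rose from 34.8 ± 2.72 to 44.0 ± 2.65 TPM (log2 fold change 0.33, limma adjusted p = 0.0493), with an adjusted p of 0.0587 to 0.170 when any library was left out. Of 10 targets of XBP1 and ATF6, the other arms of the ER stress response, 7 were lower, the median was -0.02, and the disulfide isomerase Pdia4 was the only one to pass, from 229 ± 1.72 to 195 ± 2.75 TPM (-0.23, adjusted p = 0.0131, and 0.0731 to 0.0863 without any NCOA4 siRNA library). The ER chaperone Hspa5 had -0.04 (adjusted p = 0.713).

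**Figure D5:**
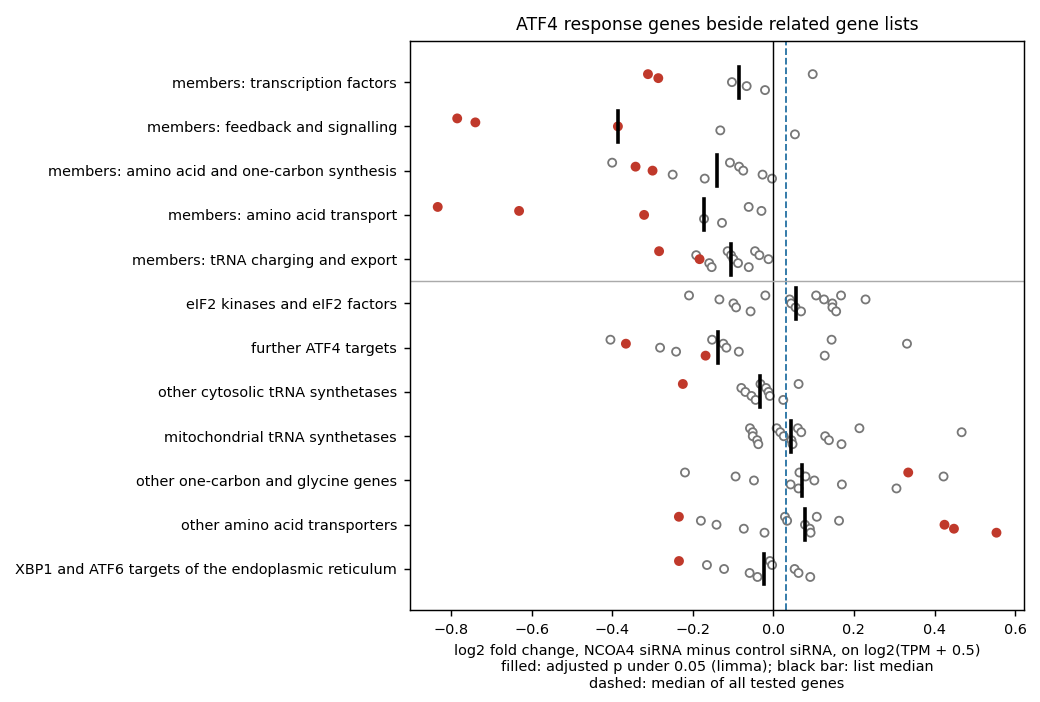
Log2 fold change, NCOA4 siRNA minus control siRNA on log2(TPM + 0.5), of each tested gene in 5 roles of the members (above the grey line) and in 7 related lists, with filled points for an adjusted p under 0.05, a black bar at the list median and a dashed line at the median of all tested genes, 0.03. Medians lie between -0.39 and -0.08 in the 5 roles, at -0.14 in the further ATF4 targets, and between -0.03 and 0.08 in the other 6 lists.

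An siRNA can also lower transcripts that carry a short match to it. The sequence of the siRNA is not given in the sources used here, so that no match to it could be checked. The bases GAATGCC occur in the coding sequence of Ncoa4 and were singled out in earlier work on these data. They were in an annotated 3′ UTR of 20.7% of the 294 genes with one that fell, against 9.39% of 10815 tested genes. Of the 28 that also fell by more than 1.5-fold, 11 (39.3%) held them. Because these same data led to their choice, this excess is no independent evidence. GAATGCC was in 3 of the 41 tested members (7.32%), Slc1a4, Mthfd2 and Gpt2, and in 2 of the 12 members that passed. Without these 3 genes the median over the other 38 members was -0.12. Whether GAATGCC or any other match to the siRNA had a part in the fall of Slc1a4, Mthfd2 or the other members was not tested.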

How the data were processed

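RNA-seq of 6 libraries of J774 cells was analysed, 3 with control siRNA and 3 with NCOA4 siRNA, grouped by the labels. The submitters' processing notes name Trimmomatic 0.33, FastQC, HISAT2 2.1.0, featureCounts, edgeR and the build mm10, without their roles or settings. The authors deposited TPM per Ensembl gene and library, that is, read counts over gene length brought to the same total in each library, without a further normalization between them. Symbols and positions came from GENCODE M21 (GRCm38), which named 55227 of 55487 identifiers. Where a symbol stood for several identifiers, that with the highest TPM was used, as for Ddit3, whose other identifier was at 0.

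Genes with a mean of at least 0.5 TPM were tested with limma 3.58.1 (R 4.3.3) on log2(TPM + 0.5), with lmFit and a trended eBayes, no covariate and Benjamini-Hochberg adjustment over all 13829 genes. A gene passed at an adjusted p under 0.05 and was called with a fold change above 1.5 besides. Single values were compared with an exact two-sided permutation test (scipy 1.17.1, Python 3.11.15). Labels call the replicates biological without saying how they were separated.

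Whole reads were rebuilt from TPM and GENCODE M21 gene lengths, within 0.02 of a whole number in all libraries for 98.5% of the 21096 genes above 0, all tested members among them. They gave the depth and a limma-voom alternative. The spread between replicates includes counting error. A promoter match of 1 member is not reported here. Copies were sought at 97% identity or more over at least 150 bases.

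The members and all lists were chosen with earlier results of these data known. Values in all libraries are given for members that passed and for Atf4, Ddit3, Trib3, Asns, Slc7a5 and Aars, and of each related list up to 4 genes that passed are named. Other genes named were chosen after their values were seen. As alternatives, the fit was repeated with a pseudocount of 1 or 0.1, without the filter or with one at 5 TPM, after median centring or quantile normalization, with eBayes lacking the trend, with limma-voom, with replicate numbers as a block, and without each library.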

Additional observations from a re-analysis of the deposited data

How the results depend on the processing

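The 12 members that passed and 4 called kept these counts with pseudocounts of 1 and 0.1. Without a filter 8 passed and 2 were called, and without a trend in eBayes 6 and 2. The share of all tested genes that fell and passed was 1.03% and 1.04% in these fits, against 2.31% in the main fit. Median centring gave 20 passed and a median of -0.19 over the members, while 4.50% of all tested genes fell and passed. Among all called genes it gave 105 higher and 68 lower in place of 119 and 44. Quantile normalization gave 99 higher and 61 lower. With limma-voom on rebuilt reads 17 members passed. The number of all tested genes that fell and passed rose as well, to 545 of 13609, against 320 of 13829 in the main fit. Leaving out each library in turn gave 77 to 172 called genes, 1 to 13 members that passed and 1 to 3 called. Of all tested genes 0.362% to 2.68% then fell and passed. Over these, Ddit3 ranged from -0.0558 to 0.0084 in log2 fold change, turning to 0.0007 without control siRNA replicate 2 and to 0.0084 without NCOA4 siRNA replicate 1. Bcat1 and Slc36a1, which are not members, passed under all 15 alternatives. No member did so, and the most for any member was 13, for Chac1, Slc1a4 and Slc7a5. The causes were not tested.

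Deviations from the group means correlated at 0.0283, -0.0185 and 0.0229 between control and NCOA4 siRNA libraries of the same number. Between libraries of different numbers they correlated at -0.0412 to 0.0202. Labels do not say whether libraries of the same number belong together, and 3 libraries per group are too few for these values to decide it. With the replicate number as a block 87 genes were called, 3 members passed (Chac1, Eif4ebp1 and Slc6a9) and 2 were called. In that fit 0.484% of all tested genes fell and passed.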
